A study of Mus musculus with 10 samples.

Results

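Astrocyte genes that differ in their regional bias were examined in adult mouse cortex. The 10 genes were chosen by symbol with earlier results of these data known, so their differences between genotypes are given as descriptions of the deposited values and not as tests. They fall into 2 classes: Agt and Slc6a11, known to be stronger in astrocytes of subcortical regions, and 8 genes that mark cortical astrocytes or astrocytes in general (Gjb6, Gja1, Aldh1l1, Slc1a2, Slc1a3, Aqp4, Gfap and Mfge8). All 10 were found among the 13661 genes of the authors' deposited table. Cortex was taken from males aged 8 weeks, 5 of them wild-type (WT) and 5 with the Chd8 knock-in (KI) genotype, a line made to model duplication of the autism-related chromatin remodeller gene Chd8. The labels give no treatment, and neither the strain, the site of the knock-in allele nor its promoter is given in the sources used here. Whether animals shared a litter is not given either, so p-values measure the spread between these samples.

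Astrocytes clear glutamate and GABA from the space around synapses, couple to each other through gap junctions, and cover blood vessels with endfeet that carry water channels. They keep a regional identity from development, so that astrocytes of the telencephalon, which holds the cortex, and those of the thalamus and brainstem express partly different genes. Agt, which encodes angiotensinogen, and Slc6a11, which encodes the GABA transporter GAT-3, are known for higher levels in astrocytes below the cortex, whereas Mfge8 is known as a marker of telencephalic astrocytes.

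The table holds 1 value per gene for the comparison and 1 mean level over all 10 libraries, so values per library, their SD and the depth of each library are unknown here. The level used below is the mean normalised count, that is, counts scaled by the authors for library size and averaged over the libraries. Over all genes, 10 of 13660 (0.0732%) passed at an adjusted p under 0.05 in the DESeq2 Wald test of the authors' deposited table, 9 of them lower (0.0659%) and 1 higher (0.00732%). Which genotype is the numerator is not stated in the header. Fold changes were taken as KI relative to WT, since Chd8 is then higher, at 1.40-fold (95% interval 1.22 to 1.61) in the authors' deposited table, and each direction below depends on this. A value in parentheses after a log2 fold change is its standard error. The cortical markers Tbr1 and Slc17a7 were listed at mean normalised counts of 2843 and 28078.

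The upstream sequences of the 4 genes with the lowest fold changes are shown because these genes of both classes stood at similar values and yet have unlike start regions. RefSeq promoter entries (GRCm38.p6, the assembly behind mm10) were matched for 9 of the 10 genes, all but Aqp4. The 250 bases before the start of each entry are given 5′ to 3′ on the strand of the gene, with CpG dinucleotides and the TATA box in capitals. The Agt window lies at chr8:124569707-124569956 and that of Gjb6 at chr14:57133612-57133861, both on the minus strand. That of Slc6a11 lies at chr6:114130991-114131240 and that of Aldh1l1 at chr6:90550543-90550792, both on the plus strand. The genes themselves are protein-coding, with Agt annotated at chr8:124556587-124569706 and Slc6a11 at chr6:114131241-114249886, and the expression values are for whole genes.
Agt: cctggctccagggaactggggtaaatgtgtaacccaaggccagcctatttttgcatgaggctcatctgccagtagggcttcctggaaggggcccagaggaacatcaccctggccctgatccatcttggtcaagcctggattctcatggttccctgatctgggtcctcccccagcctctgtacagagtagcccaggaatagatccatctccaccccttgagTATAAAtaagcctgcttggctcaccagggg
Slc6a11: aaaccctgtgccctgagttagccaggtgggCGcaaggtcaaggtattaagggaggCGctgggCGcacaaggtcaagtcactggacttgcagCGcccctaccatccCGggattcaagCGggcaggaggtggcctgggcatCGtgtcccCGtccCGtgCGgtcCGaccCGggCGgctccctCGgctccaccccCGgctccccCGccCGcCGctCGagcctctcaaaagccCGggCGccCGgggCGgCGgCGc
Aldh1l1: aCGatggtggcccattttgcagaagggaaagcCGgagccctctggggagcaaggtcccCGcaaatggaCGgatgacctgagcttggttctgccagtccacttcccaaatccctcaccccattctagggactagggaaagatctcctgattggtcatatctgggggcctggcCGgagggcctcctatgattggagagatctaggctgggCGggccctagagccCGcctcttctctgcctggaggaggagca
Gjb6: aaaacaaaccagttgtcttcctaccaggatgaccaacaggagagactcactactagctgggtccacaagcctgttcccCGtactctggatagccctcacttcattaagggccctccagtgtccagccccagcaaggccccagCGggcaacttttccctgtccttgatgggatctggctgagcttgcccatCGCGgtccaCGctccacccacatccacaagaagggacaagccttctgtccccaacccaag

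The 2 subcortical genes had unlike start regions. The Agt sequence held 0 CpG dinucleotides and a TATA box (letters TATAAA) that began 30 bases before the start. The Slc6a11 sequence held 25 CpG dinucleotides, more than 89.3% of the 32851 promoter entries, no TATAAA and 3 GC boxes. Aldh1l1 and Gjb6 lay between them with 7 and 5 CpG dinucleotides, near the median of 6 over all entries. Of the motifs searched on both strands, TATAAA was present in 12.4% of all entries and in 2 of the 9 matched genes (Agt and Slc1a3). In Slc1a3 the match lay on the opposite strand and began 161 bases before the start. The GC box GGGCGG, which contains a CpG, was present in 32.7% of entries and in 4 of the 9 (Slc6a11, Aldh1l1, Mfge8 and Slc1a3). The nuclear factor I core TTGGC was found in 41.5% of entries and in 2 of the 9 (Agt and Slc1a2). The STAT motif TTCNNNGAA stood in 7.02% of entries and in 2 of the 9 (Agt and Slc1a3). The Slc1a2 and Aldh1l1 entries start within the annotated genes, so they may not be the starts used in cortex. For Aldh1l1, the window ends at chr6:90550792, past the lower gene coordinate of 90550768. These are matches of letters in 1 window per gene, and methylation or binding there was not measured.

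The 10 genes spanned a wide range of levels. Per kilobase of the longest GENCODE M21 transcript, Slc1a2, the main glutamate transporter of forebrain astrocytes (GLT-1), had the highest level of the 10 at 5013 mean normalised counts per kilobase. Slc1a3, the glutamate transporter GLAST, followed at 2751 per kilobase. Each stood above at least 97.6% of genes with a known transcript length. Gfap, the intermediate filament protein of astrocytes, was at 1625 per kilobase and Mfge8, a secreted bridge for phagocytosis, at 1367 per kilobase. Slc6a11 was at 937 per kilobase and Gja1, the gap junction protein connexin 43, at 822 per kilobase. Aqp4, the water channel of endfeet, stood at 572 per kilobase and Gjb6, connexin 30, at 465 per kilobase. Aldh1l1, a folate enzyme used as a general astrocyte marker, was at 240 per kilobase. Agt had the lowest level of the 10, at 191 per kilobase, which was still above 53.9% of genes. This order is a description, since no spread over libraries is given for a level and the longest transcript need not be the one expressed.

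Both subcortical genes stood below the WT level in KI cortex. The mean level of Agt over all libraries was 361 normalised counts, and the deposited mean and fold change together imply 394 in WT and 328 in KI if the group means average to the overall mean. The authors' deposited table put its log2 fold change at -0.27 (0.14), a ratio to WT of 0.832 with a 95% interval of 0.685 to 1.01. Agt thus had the lowest ratio of the 10 genes, and its interval reached past 1. Slc6a11, at a mean normalised count of 3873, had implied levels of 4046 in WT and 3701 in KI. The authors' deposited table put its log2 fold change at -0.13 (0.063), a ratio of 0.915 with an interval of 0.840 to 0.996. The interval ended just under 1, and neither gene passed the threshold (adjusted p = 0.9999 for both, DESeq2 Wald test of the authors). Whether KI cortex held fewer astrocytes of a kind or less RNA per cell cannot be told apart in bulk tissue, here or for the genes below.

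The 8 cortical or general genes did not share a direction. Among them, Aldh1l1 and Gjb6 had values as low as that of Slc6a11. Aldh1l1 had implied levels of 1046 in WT and 955 in KI, and the authors' deposited table gave it a log2 fold change of -0.13 (0.062) and a ratio of 0.913 (interval 0.839 to 0.993). Gjb6 had implied levels of 1029 in WT and 927 in KI, and the authors' deposited table listed a log2 fold change of -0.15 (0.096) and a ratio of 0.901 (interval 0.791 to 1.03). The intervals of Aldh1l1 and Gjb6 overlapped that of Slc6a11, so low values were found in both regional classes.

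**Figure D1:**
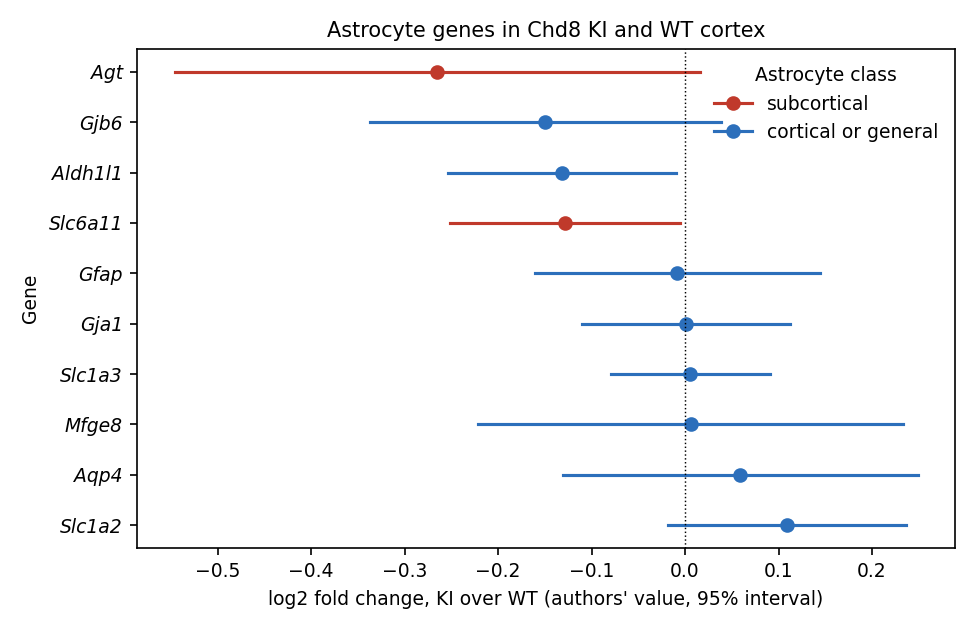
Log2 fold change of KI over WT (horizontal axis) for each of the 10 astrocyte genes (vertical axis), with points for the authors' deposited values, lines for 95% intervals and colour for the regional class. Agt, Gjb6, Aldh1l1 and Slc6a11 sit between -0.27 and -0.13, and the other genes sit between -0.01 and 0.11.

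The other 6 genes had ratios between 0.994 and 1.08. Gja1 had the value closest to 0, with a log2 fold change of 0.00074 (0.057), implied levels of 3197 in WT and 3198 in KI, and an interval of the ratio from 0.926 to 1.08 in the authors' deposited table. Slc1a3 had the narrowest interval of the 10, from 0.946 to 1.07 around a log2 fold change of 0.0056 (0.044), on implied levels of 12176 in WT and 12223 in KI. Changes of the Slc1a3 mRNA below -5.37% or above 6.51% therefore lay outside its interval. Gfap, whose rise is the usual sign of reactive astrocytes, stood at a ratio of 0.994 (interval 0.895 to 1.10), with implied levels of 4316 in WT and 4291 in KI, in the authors' deposited table. Mfge8, the telencephalic marker, had a log2 fold change of 0.0061 (0.12) and a wide interval of the ratio, 0.858 to 1.18, in the authors' deposited table, on implied levels of 3179 in WT and 3193 in KI. Aqp4 had a ratio of 1.04 (interval 0.914 to 1.19), from implied levels of 2832 in WT to 2950 in KI. Slc1a2 was the highest of the 10, with implied levels of 55933 in WT and 60325 in KI and a ratio of 1.08 (interval 0.988 to 1.18) in the authors' deposited table. Its log2 fold change of 0.11 (0.065) became 0.052 with the trend over transcript length removed. All 6 of these intervals included 1.

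Set side by side, the median log2 fold change was -0.20 over the 2 subcortical genes and 0.0032 over the 8 cortical or general genes, a difference of -0.20. Means weighted by precision gave -0.14. Over all 13660 genes the median was 0.0025 and 48.4% of values were negative, against 2 of 2 subcortical genes and 3 of 8 of the others. No member passed the adjusted threshold, beside 0.0732% of all genes. At an unadjusted p under 0.05, 2 of the 10 were listed, Aldh1l1 (p = 0.0347) and Slc6a11 (p = 0.0406, both from the DESeq2 Wald test of the authors), both lower, beside 3.22% of all genes in either direction and 1.88% on the lower side. They ranked 318 and 360 by p among all genes. The difference between the classes could not be tested, because the genes share libraries and their covariance is not in the table.

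The deposited standard errors showed which of these values were loosely fixed. Genes within a factor of 1.5 of the same mean normalised count served as the yardstick. Mfge8 had a standard error of 0.12 where the median of 1374 such genes was 0.056, and 96.8% of them had a smaller one. Agt (0.14 against a median of 0.095) and Aqp4 (0.097 against 0.057) exceeded 94.3% and 93.6% of their like genes. Gjb6, Gfap and Slc6a11 exceeded 87.2%, 85.7% and 68.8%. Slc1a2 had only 16 genes at a like level and exceeded 62.5% of them. Aldh1l1, in contrast, had a smaller standard error (0.062) than most genes at its level (median 0.070, above 27.9% of them), and Slc1a3 (39.5%) and Gja1 (52.0%) were near the middle. The lowest ratio of the 10, that of Agt, thus came with one of the wider errors for its level.

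**Figure D2:**
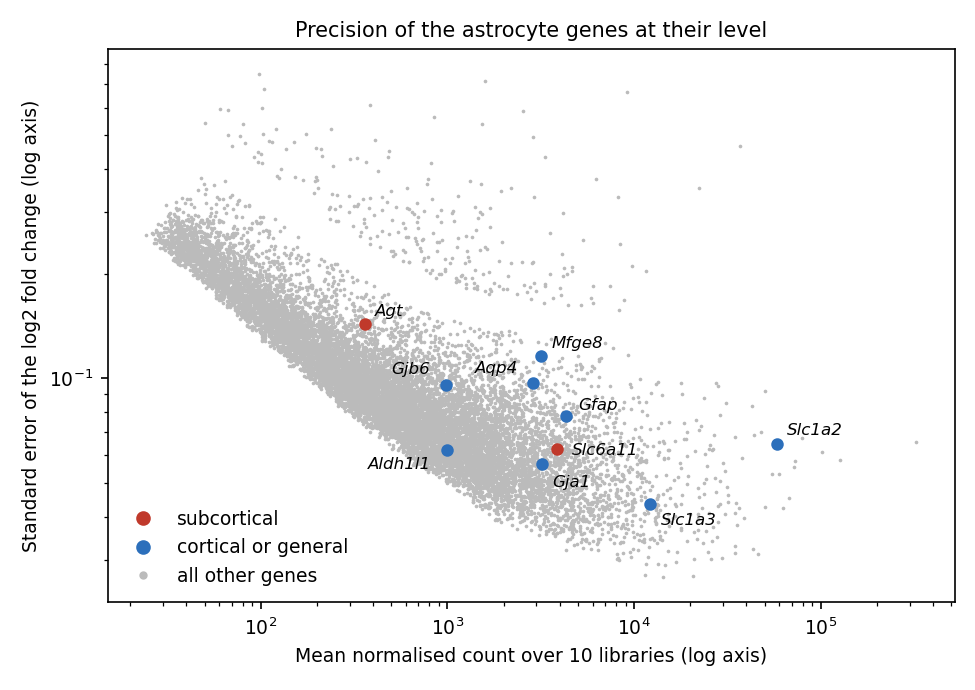
Standard error of the log2 fold change (vertical log axis) against the mean normalised count over 10 libraries (horizontal log axis), with grey points for all genes and coloured points for the 10 astrocyte genes. Mfge8, Agt and Aqp4 lie on the upper edge of the main band at their level, and Aldh1l1 lies in its lower part.

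GABA and glycine transporters gave the closest relatives of Slc6a11. Slc6a9, the glycine transporter GlyT1 that is more abundant in caudal brain regions, had a log2 fold change of -0.16 (0.081) and a ratio of 0.897 in the authors' deposited table. Slc6a13, the GABA transporter GAT-2 found in the meninges, stood at -0.27 (0.17), and the vesicular GABA transporter Slc32a1 at -0.12 (0.074). Of the 8 listed genes of this group of 10, 4 were negative and 4 positive (median log2 fold change -0.0045), and 0 passed the adjusted threshold. At an unadjusted p under 0.05 the count was also 0.

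Glutamate handling genes besides Slc1a2 and Slc1a3 were centred near 0, with a median log2 fold change of -0.014 over 12 genes, 9 of them negative and 0 past the adjusted threshold. Glul, the glutamine synthetase of astrocytes, stood at -0.0064 (0.069) in the authors' deposited table. Slc1a1, the neuronal glutamate transporter EAAC1, stood at -0.10 (0.046), and Slc17a6, the vesicular glutamate transporter of thalamic and other subcortical neurons, at -0.32 (0.11). Slc17a7, its cortical counterpart, was at 0.062 (0.039). The unadjusted p was 0.0033 for Slc17a6 and 0.0284 for Slc1a1 in the authors' deposited table, and neither passed after adjustment; an unadjusted p under 0.05 was thus listed for 2 of the 12, both lower, beside 1.88% of all genes on the lower side.

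Connexins beside Gjb6 included further low values. Gjb2, connexin 26, whose gene lies beside Gjb6 on chromosome 14 with 0.0247 megabases between their lower coordinates, had a log2 fold change of -0.34 (0.12) and a ratio of 0.792 (interval 0.673 to 0.932) in the authors' deposited table, with an unadjusted p of 0.00506 and an adjusted p of 0.94. Gjc1 stood at -0.34 (0.15) and Gjd2, the main connexin of neurons, at -0.27 (0.12). The gap junction list of 10 genes was wider than the connexins. It also held Panx1 at -0.15 (0.11), Panx2 at 0.047 (0.062) and Tjp1 at 0.038 (0.077), which are not connexins. Of its 9 listed genes, 6 were negative (median -0.15) and 0 passed the adjusted threshold. An unadjusted p under 0.05 was listed for 3 (Gjb2, Gjc1 and Gjd2), all lower, beside 1.88% of all genes on the lower side. Gjb2 is expressed in the leptomeninges as well as in astrocytes, and 15 of 15 listed meningeal markers were negative (median -0.21). Of these 15, 1 passed the adjusted threshold, beside 0.0659% of all genes on the lower side. An unadjusted p under 0.05 was listed for 5 of them, all lower, beside 1.88%. The part of meningeal tissue in the connexin values was not tested.

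The renin-angiotensin genes gave 1 value with a smaller p than Agt. Ace, the angiotensin-converting enzyme, had implied levels of 684 in WT and 573 in KI and a log2 fold change of -0.26 (0.068) in the authors' deposited table, a ratio of 0.837 with an interval of 0.763 to 0.918. It ranked 11 by p among all genes and did not pass after adjustment (adjusted p = 0.208, DESeq2 Wald test of the authors). Lnpep, an angiotensin IV binding peptidase, stood at 0.16 (0.11), Mas1, a receptor for an angiotensin fragment, at 0.10 (0.097) and Anpep, aminopeptidase N, at -0.15 (0.17). Of the 8 listed genes among 12, 4 were negative (median 0.014), 0 passed the adjusted threshold and 1, Ace, had an unadjusted p under 0.05, beside 1.88% of all genes on the lower side. Ren1 and the angiotensin receptors Agtr1a, Agtr1b and Agtr2 were not analysed here. Ace is also made by the choroid plexus and by striatal neurons, and 10 of 12 choroid plexus and ependyma markers were negative (median -0.18), 0 of them past the adjusted threshold and 6, all lower, at an unadjusted p under 0.05, beside 1.88% of all genes on the lower side. The part of those tissues in the Ace value was not tested.

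Endfoot genes, the partners of Aqp4, were split, with 5 of 11 negative and a median log2 fold change of 0.0015. Dmd, encoding dystrophin, stood at 0.14 (0.064) and the aquaporin Aqp11 at 0.21 (0.10) in the authors' deposited table. Dtna, encoding alpha-dystrobrevin, stood at 0.061 (0.056). Of this list 0 passed the adjusted threshold and 2, both higher, had an unadjusted p under 0.05, beside 1.34% of all genes on the higher side. Of 9 other genes for bridging or receptors in phagocytosis, not all of them partners of Mfge8, 4 were negative (median 0.0092). The integrin subunit Itgb5 stood at -0.14 (0.069), the receptor kinase Mertk at 0.14 (0.070), the integrin subunit Itgb3 at -0.30 (0.16) and the ligand Gas6 at -0.066 (0.039). Of 9 listed folate enzymes, the pathway of Aldh1l1, 3 were negative (median 0.039). Aldh1l2, the mitochondrial counterpart of Aldh1l1, stood at -0.0085 (0.20) in the authors' deposited table. Neither list had a member past the adjusted threshold, and at an unadjusted p under 0.05 the counts were 2 (Itgb5 lower and Mertk higher) and 0, beside 3.22% of all genes in either direction.

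Astrocyte genes outside the 10 were also grouped by their known regional bias. Of 5 listed genes with a known subcortical bias, 4 were negative (median log2 fold change -0.067). Besides Slc6a9 these were Olig2 at -0.098 (0.10), Sparc at -0.067 (0.10) and Nkx6-2 at -0.028 (0.091), while Itih3, another marker of non-telencephalic astrocytes, stood at 0.013 (0.12) in the authors' deposited table. Olig2 and Nkx6-2 are also expressed by oligodendrocytes, of whose markers 14 of 14 were negative (median -0.081, 0 past the adjusted threshold and 2, both lower, at an unadjusted p under 0.05, beside 1.88% of all genes on the lower side). The part of oligodendrocytes in those 2 values was not tested. Of 5 genes with a telencephalic bias, 3 were negative (median -0.016), with Chrdl1, a secreted factor of cortical astrocytes, at 0.12 (0.11), the transcription factors Dmrta2 at -0.14 (0.15), Lhx2 at 0.067 (0.090) and Emx2 at -0.054 (0.12). Neither list had a member past the adjusted threshold, beside 0.0732% of all genes, or with an unadjusted p under 0.05, beside 3.22%. Each interval of these 10 genes included no change.

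General astrocyte genes were centred near 0. Of 38 genes, 21 were negative and 17 positive (median log2 fold change -0.0074), and 0 passed the adjusted threshold or an unadjusted p of 0.05 in the authors' deposited table. The genes with the smallest p were Plcd4, a phospholipase C, at -0.20 (0.12), Dio2, which activates thyroid hormone, at 0.12 (0.075), Gldc, of glycine breakdown, at 0.10 (0.066) and Fjx1 at 0.11 (0.081). Summed over the 38 genes, implied levels were 185941 in WT and 184133 in KI, a ratio of 0.990, against 0.908 for the sum of Agt and Slc6a11. Reactive astrocyte genes had 6 of 11 negative (median -0.043) and 0 past the adjusted threshold or an unadjusted p of 0.05, beside the same shares. Vim, encoding vimentin, stood at -0.14 (0.072), Aspg at -0.53 (0.29) and the cytokine receptor Osmr at 0.19 (0.16), and the acute-phase gene Serpina3n was at 0.040 (0.083) in the authors' deposited table.

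Markers of tissue below and around the cortex had mostly negative values, as Agt and Slc6a11 did. Of 14 listed thalamus genes, 12 were negative (median log2 fold change -0.39), beside 48.4% of all genes. An unadjusted p under 0.05 was listed for 11 of the 14, all lower, beside 1.88% of all genes on the lower side. Past the adjusted threshold were 4, all lower, beside 0.0659% of all genes on the lower side. They were Tnnt1, Tcf7l2, Ramp3 and Prkcd, with ratios to WT of 0.396, 0.528, 0.760 and 0.436 in the authors' deposited table. Summed over the list, implied levels were 8569 in WT and 7331 in KI. These genes were put on the list with their falls already known. The 2 positive values on that list were Hap1 at 0.070 (0.056) and Lef1 at 0.090 (0.15). The summed levels of the meningeal list were 17537 in WT and 15120 in KI, and those of the choroid plexus and ependyma list 27330 in WT and 24535 in KI. Excitatory neuron markers had 7 of 8 values positive (median 0.053). The part of subcortical tissue in the Agt and Slc6a11 values was not tested, since values per library would be needed.

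**Figure D3:**
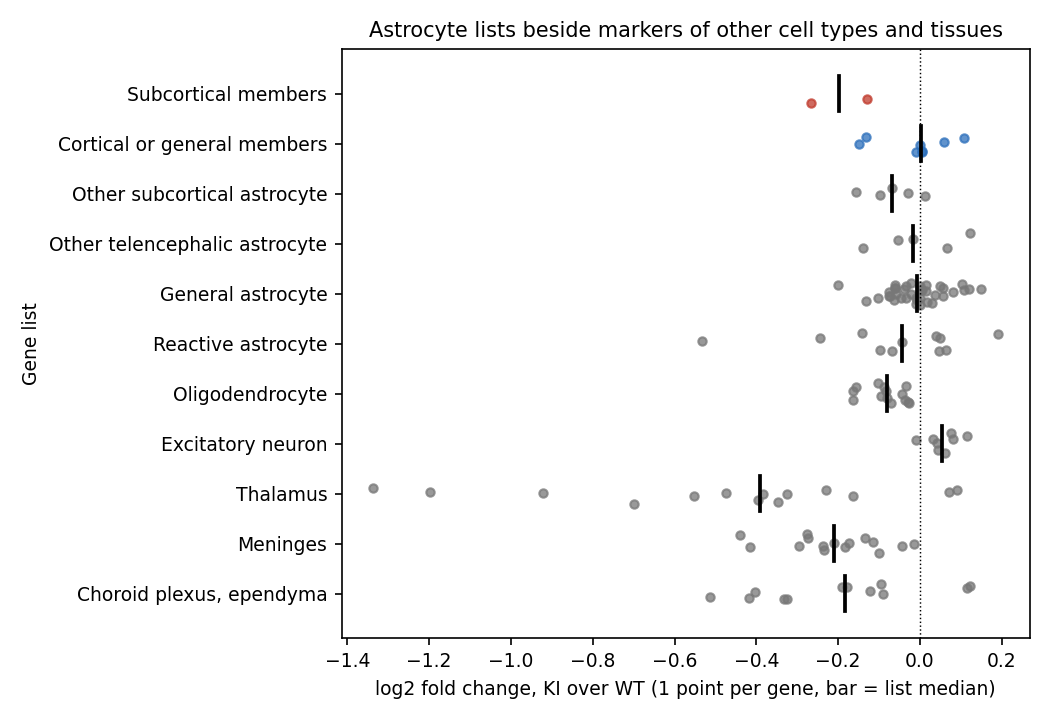
Log2 fold change of KI over WT (horizontal axis) for each gene of 11 lists (vertical axis), with 1 point per gene and a bar at each list median. The general astrocyte list is centred near 0, the 2 subcortical members lie left of it at -0.27 and -0.13, and the thalamus list reaches -1.34.

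Slc6a11 lies on chromosome 6, and 1.06 megabases separate it from Gt(ROSA)26Sor, measured here and below between the lower coordinates of genes. Gt(ROSA)26Sor is the non-coding transcript with the smallest p in the authors' deposited table and stood at a log2 fold change of -0.72 (0.13), with an adjusted p of 9.6e-04 in the DESeq2 Wald test of the authors. This neighbourhood was examined after its values were seen. Of the 48 other tested genes within 2 megabases of Slc6a11, 20 were negative, the median log2 fold change was 0.015, and Gt(ROSA)26Sor was the 1 gene past the adjusted threshold. An unadjusted p under 0.05 was listed for 4 of the 48, against 3.22% of all genes: Gt(ROSA)26Sor, Oxtr at -0.27 (0.12) and Thumpd3 at -0.15 (0.077) on the lower side, and Tmcc1 at 0.11 (0.047) on the higher side. Thumpd3 overlaps Gt(ROSA)26Sor, and whether counting used strand is not stated, so their reads cannot be told apart where they overlap. Atp2b2, the nearest listed gene on the side of Gt(ROSA)26Sor, stood at 0.057 (0.062). Gjb6 and Gjb2, both at low values, lie 4.93 and 4.90 megabases from Chd8 on chromosome 14. Whether position on the chromosome bears on the Slc6a11 or connexin values was not tested.

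**Figure D4:**
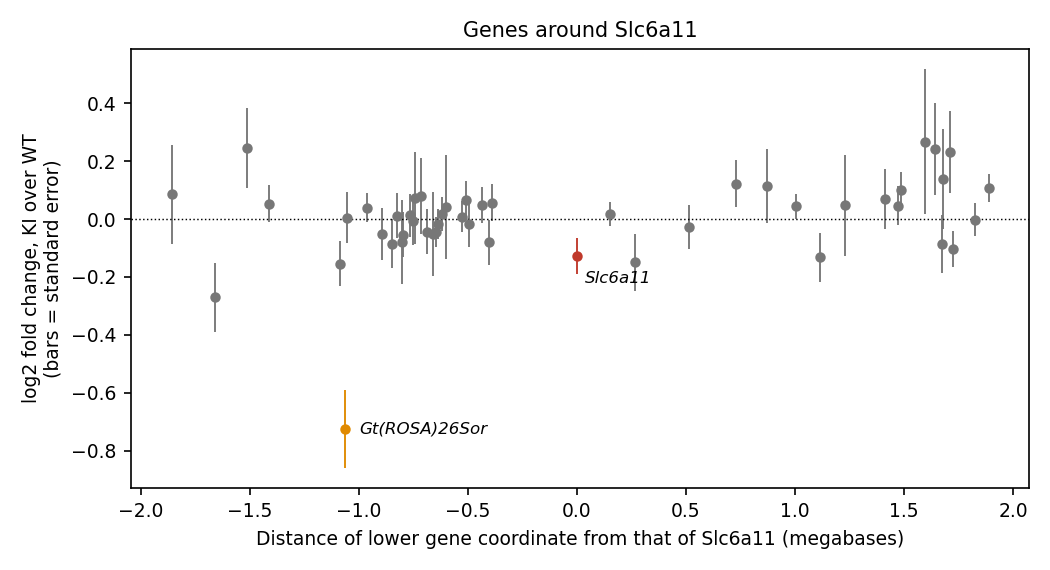
Log2 fold change of KI over WT (vertical axis, bars are standard errors) against the distance of the lower coordinate of each gene from that of Slc6a11 in megabases (horizontal axis), for the genes within 2 megabases. Gt(ROSA)26Sor stands apart at -0.72, and the genes between it and Slc6a11 lie on both sides of 0.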

How the data were processed

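RNA-seq of poly(A) RNA was carried out on 10 cortex libraries, grouped by title into 5 WT and 5 KI. Per the submitters' processing notes, the tools were Trimmomatic 0.39, HISAT2 2.1.0, featureCounts 2.0.0 and DESeq2 1.26.0 on mm10; settings, gene annotation, strandedness and the model were not given in the sources used here. Per the file headers, the authors' deposited table gives the mean normalised count over libraries (a signal after scaling for library size), a log2 fold change, its standard error, the Wald score, the p-value and the adjusted p-value. The score equalled the log2 value divided by its error for all 13661 genes, and the adjusted p equalled a Benjamini-Hochberg adjustment over 13660 genes. Whether fold changes were shrunken is not given. The lowest mean normalised count was 24.4.

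With Python 3.11.15, 95% normal intervals, implied group levels (equal group sizes) and list counts and medians were computed. RefSeq symbols matched 13497 gene numbers. The members and the 19 other lists were chosen with earlier results of these data known. Named genes were the 10 members, Chd8, and of each described list those past the threshold and up to 4 with the smallest p. Others were named in addition, after their values were seen. They were Glul, Slc17a7, Aldh1l2, Serpina3n, Itih3, Hap1, Lef1, Panx1, Panx2, Tjp1, the cortical markers and the neighbours of Slc6a11. Alternatives were other centrings, thresholds, count minimums, a rescaled Wald score and a length trend removed. Some genes of these lists are counted but not reported here by name. The scripts were tested on simulated data.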

Additional observations from a re-analysis of the deposited data

How the results depend on the processing

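No member passed the adjusted threshold under any of the 5 alternatives for that count. The thresholds of 0.01 and 0.1 could not have added one, since the lowest deposited adjusted p among the members was 0.9999 (DESeq2 Wald test of the authors). Over all genes, 10 passed at an adjusted p of 0.05; the count was 6 at a threshold of 0.01 and 23 when the Wald scores were divided by their robust SD of 0.855, where the lowest adjusted p among the 10 members was 0.579. Centring on all genes, centring on the general astrocyte list and removing the transcript length trend each moved all 10 fold changes by less than their standard error. For the centrings this was fixed beforehand. Each shifts every gene by the same amount, at most 0.0074, and the smallest standard error of the 10 was 0.044 (Slc1a3). The largest move was that of Slc1a2, from 0.11 to 0.052 with the length trend removed. The signs of Gja1 and Slc1a3, both near 0, changed with the length trend removed, to -0.0095 and -0.0077, and that of Gja1 with centring on all genes (-0.0017). The difference between the class medians was -0.20 without Gfap and -0.19 against the general astrocyte list, and the difference between precision-weighted means was -0.14. No paired analysis was possible because the deposited table holds no values per library, and leaving out each replicate was not run for the same reason.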

Other observations

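Other cell types of the cortex showed small values beside the astrocyte lists. In the authors' deposited table, 6 of 8 microglial markers were negative (median log2 fold change -0.025), 3 of 8 endothelial markers (median 0.026) and 6 of 8 inhibitory neuron markers (median -0.059). In none of these 3 lists did a gene pass the adjusted threshold, beside 0.0732% of all genes, or an unadjusted p of 0.05, beside 3.22% (DESeq2 Wald test). The lowest values were those of Dlx1, a transcription factor of interneurons, at -0.19 (0.12), C1qb, a complement subunit of microglia, at -0.17 (0.11) and Pvalb, parvalbumin, at -0.15 (0.079).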
